A study of Drosophila melanogaster with 12 samples.

Results

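The transcripts described here are those of cytoplasmic ribosomal protein genes of *Drosophila melanogaster*. They were picked by a rule on their names, and the group was chosen with earlier results of these data known. A transcript was taken when its name in the deposited count table, without the isoform ending, began with RpL, RpS, RpLP or RpSP followed by a digit. This rule found 89 of the 15448 transcripts in the table, each the single entry of its gene. A ribosomal protein gene without an entry under such a name, such as RpS27A, was not taken, so the set is not complete. By their names, 47 belonged to the large subunit, 36 to the small subunit and 3 to the stalk (RpLP0, RpLP1 and RpLP2). The other 3 were RpL7-like, RpL24-like and RpLP0-like, whose yeast homologs Rlp7, Rlp24 and Mrt4 are assembly factors that leave the particle before the ribosome is mature. Of the 89, 83 had enough counts to be tested in the comparisons below.

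Ribosomal proteins surround and stabilise the ribosomal RNA of the small subunit, which reads the mRNA, and of the large subunit, which joins the amino acids. They are needed in near-equal amounts in every growing cell, and in flies the loss of a single copy of many of these genes gives the slow-growing Minute phenotype. Several fly ribosomal proteins are encoded by a pair of paralogs, of which one is often used mainly in the germline. RpL22-like, enriched in the testis, is an example.

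The study asked how the balance of protein and carbohydrate in an isocaloric diet affects flies from a large outbred laboratory population. Poly(A) RNA was sequenced from whole females that were fed diets with a protein-to-carbohydrate (P:C) ratio of 0.25, 0.4, 0.55 or 0.7, made by exchanging yeast for sugar. The P:C ratio of 0.4 was the baseline food of the population and is called the control diet. Each diet had 3 replicates, each a separate pool of 12 females per the methods of the study, and all were frozen on day 13 after egg collection, so that adult age at freezing was not fixed by the design and cannot be told apart from diet. No allele or drug differed between the groups.

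The 12 libraries held 6094226 to 13245114 counts, so that 3 counts, the floor used here, corresponded to 0.216 to 0.479 CPM. CPM are the counts of a transcript per 1e6 counts of its library, after a scaling factor for each sample (trimmed mean of M values, TMM). No 2 replicates of a diet agreed within sampling noise. Markers of tissues within the whole fly were not steady across the diets. All 8 muscle genes tested fell along the P:C ratio, with a summed level of 5100 to 5914 CPM at the P:C ratio of 0.25 and 1360 to 1657 CPM at 0.7, and all 6 nervous system genes fell, from 316 to 396 CPM down to 147 to 183 CPM. Of 16 germline genes, 11 rose and none fell, and their summed level was 2637 to 3137 CPM at 0.25, 3412 to 3648 CPM at 0.4, 3297 to 3813 CPM at 0.55 and 3667 to 4097 CPM at 0.7. Over all tested transcripts, 17.1% rose and 19.6% fell along the P:C ratio by the test described below. Of 14 testis and male genes in the table, 1 passed the filter on low counts. In RNA from whole animals, fewer cells of a type and less RNA per cell cannot be told apart.

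Ribosomal protein transcripts took a near-constant share of every library. On the P:C 0.25 diet, the 89 transcripts together held 9.07%, 9.18% and 8.69% of all counts in replicates 1 to 3. The shares were 8.94%, 9.26% and 9.45% on the control diet, 9.32%, 9.04% and 8.58% at the P:C ratio of 0.55, and 9.10%, 8.63% and 9.38% at 0.7. The 4 diets overlapped throughout, and the lowest and the highest share of all libraries, 8.58% and 9.45%, differed by less than 1 percentage point of the counts.

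**Figure D1:**
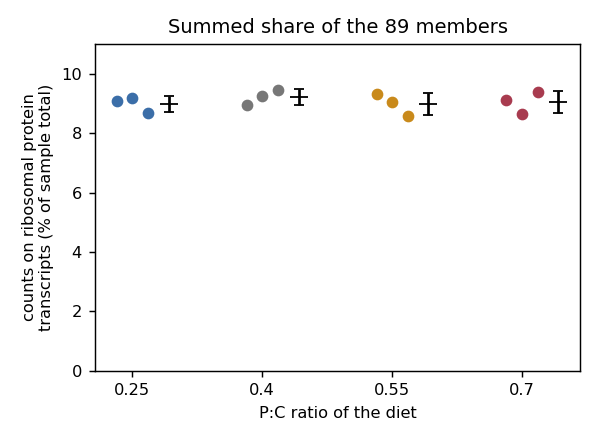
Share of all counts on the 89 ribosomal protein transcripts (y axis, percent of the library's total) in each replicate of the 4 diets (x axis, P:C ratio), with points for replicates and bars for the mean and SD (n = 3). All 12 libraries lay between 8.58% and 9.45%, and no diet stood apart from the others.

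Of the tested transcripts, 77 outside the assembly-factor homologs had a mean of at least 200 CPM, a limit chosen after the values were seen, and ranged from 448 to 2701 CPM with a median of 1080 CPM. The median over all tested transcripts of the table was 34.6 CPM. Among those with the most counts were RpL3, which lies close to the peptidyl transferase centre, RpL4, which reaches into the exit tunnel, RpL5, which binds 5S ribosomal RNA, and the small-subunit protein RpS3A. Since a longer transcript gives more counts, levels were set beside each other per kilobase of exon, where RpL3 had 1677 CPM, RpS3A 1554, RpL4 1544 and RpL5, counted on a long isoform, 552. RpL3 and RpL4 overlap a transcript on the other strand, and reads of overlapping genes may have been counted for both. Per kilobase of exon, the 77 ranged from 520 CPM to 5110 CPM, the value of RpL41, the smallest ribosomal protein, with a median of 1395 CPM.

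The levels also varied little from sample to sample. The SD of log2 CPM over all 12 libraries had a median of 0.0816 over the 83 tested members and 0.217 over all tested transcripts. It was under 0.1 for 71 of the 83 (85.5%), against 12.3% of all tested transcripts. Among the 862 other transcripts at 200 CPM or more, where counting noise is similarly small, 29.0% had an SD under 0.1 and the median was 0.139. Within a diet the median SD was 0.0824 for the members, so that the spread over the 4 diets was no wider than that among replicates of 1 diet. The SD was above 0.15 for 2 members and highest for RpL41, 0.211.

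**Figure D2:**
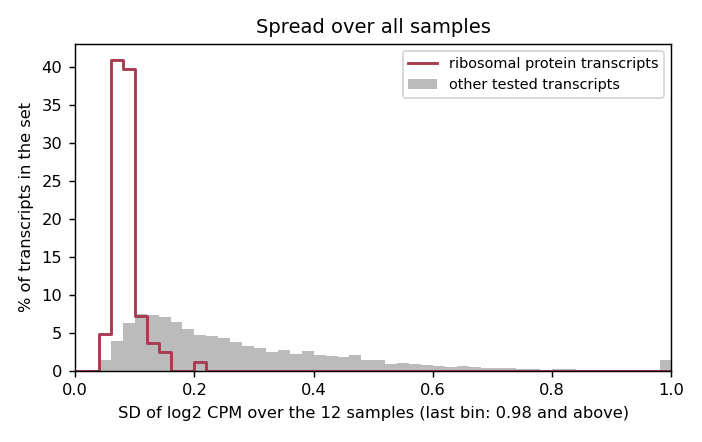
Distribution of the SD of log2 CPM over the 12 samples (x axis) as a percent of the transcripts in each set (y axis), for the 83 tested ribosomal protein transcripts (line) and the other tested transcripts (grey bars). The members sit in a narrow peak with a median of 0.0816, and RpL41 at 0.211 lies farthest from it.

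The first question was whether any diet changed ribosomal protein transcripts relative to the control diet. No member passed the test at an adjusted p under 0.05 (edgeR's quasi-likelihood test, Benjamini-Hochberg over all tested transcripts) in flies fed the P:C ratio of 0.25, where 0.708% of all tested transcripts did. At an unadjusted p under 0.05 there was 1 member (17% of all tested transcripts), and DESeq2 called 0 (4.47%). The median log2 fold change was -0.014 over the members and -0.011 over all tested transcripts, and -0.037 and -0.033 with scaling by total counts alone. Every member's 95% interval lay within a 1.5-fold change in either direction, against 66.9% of all tested transcripts.

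In flies fed the P:C ratio of 0.55 the count was again 0 of 83 (background 0.0415%), with 1 member, RpS21, at an unadjusted p under 0.05 (3.6% of all tested transcripts) and 0 by DESeq2 (0.415%). The median log2 fold change was -0.011, against -0.0022 over all tested transcripts (-0.040 and -0.029 with scaling by total counts), and 82 of 83 intervals lay within 1.5-fold. The exception was RpL41, with an interval of -0.64 to 0.050 on the log2 scale.

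On the P:C ratio of 0.7 no member passed the test either, where 9.15% of all tested transcripts did. Here 3 members had an unadjusted p under 0.05, as did 32.8% of all tested transcripts, and DESeq2 called 1, against 14.4%. The fitted values were shifted: 80 of 83 were below 0, with a median of -0.090 against 0.0028 for all tested transcripts, and the median was -0.020 when samples were scaled by total counts alone, where that of all transcripts was 0.074. Among the lowest was RpLP0, the base of the stalk that recruits the translation factors, at -0.22 (SE 0.08, adjusted p 0.0855). RpLP0 did pass with the replicate number as a block (adjusted p 0.0198), where 26.9% of all tested transcripts were called. It also passed without replicate 3 of 0.7 (0.0296), where 18.5% were called. That was 1 of 6 fits that left out a replicate, and its adjusted p reached 0.26 among them. RpLP0 measured 1941, 1977 and 2083 CPM on the control diet and 1700, 1613 and 1866 CPM at 0.7, so these 2 groups of 3 did not overlap. The partners of RpLP0 in the stalk, RpLP1 and RpLP2, had overlapping groups, with 1308 to 1434 CPM against 1171 to 1331 CPM for RpLP1 and 1173 to 1268 CPM against 1032 to 1202 CPM for RpLP2.

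The extremes of the diet range were compared with each other as well. Between the P:C ratios of 0.7 and 0.25, 38.6% of all tested transcripts passed the test, and 1 of the 83 members did, which was lower at 0.7, as were 22.8% of all tested transcripts. No member passed with a change of more than 1.5-fold, as 19.3% of all tested transcripts did. There were 6 members with an unadjusted p under 0.05, against 51.2% of all tested transcripts, and DESeq2 called 2, against 36.5%. The precision of the members' fold changes was higher than that of an average transcript, with a median SE of 0.072 against 0.125 on the log2 scale, and all 83 intervals lay within 1.5-fold, against 47% of all tested transcripts. The median log2 fold change was -0.088 with 79 of 83 below 0, against -0.0033 over all tested transcripts with 50.4% below 0. With samples scaled by total counts alone it was 0.015 with 29 below 0, where that of all tested transcripts was 0.099. The direction of the members' median thus depended on the scaling, while it lay below that of all tested transcripts in both scalings. By library, the members' median log2 CPM was 10.10, 10.05 and 10.02 at 0.25 and 9.99, 9.92 and 10.06 at 0.7, so these groups overlapped. The scaling factors of the samples were 0.951 to 1.03 at 0.25 and 1.02 to 1.05 at 0.7. Low values that did not pass the test were those of RpL10Ab, the protein of the L1 stalk at the exit of spent tRNA, at -0.22 (SE 0.08, adjusted p 0.0615), of RpL35 at -0.20 (SE 0.08, adjusted p 0.0794) and of RpS14b at -0.19 (SE 0.08, adjusted p 0.0845). RpL10Ab overlaps CG32095 on the other strand. Among the 3 highest were RpL34a at 0.067 and RpL38 at 0.053. Leaving out replicate 3 of the P:C ratio of 0.7 raised the number of members called to 6, all lower, with 38.8% of all tested transcripts called, and leaving out replicate 2 of 0.25 raised it to 2, with 43.8% called. It was 0 without replicate 1 or 3 of 0.25 or replicate 1 or 2 of 0.7, where 18% to 21.3% of all tested transcripts were called.

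The 2 remaining pairs of diets gave no member past the test. Between 0.55 and 0.25 the background was 1.24%, with 2 members at an unadjusted p under 0.05 (15% of all tested transcripts) and 0 by DESeq2 (4.34%). The median log2 fold change was 0.0091 against 0.016 for all tested transcripts, and -0.00086 against 0.0048 with scaling by total counts. Between 0.7 and 0.55 the background was 2.63%, again with 2 members at an unadjusted p under 0.05 (30.8%) and 0 by DESeq2 (13.2%). The median there was -0.080 against -0.0058 for all tested transcripts, and 0.0072 against 0.082 with scaling by total counts.

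**Figure D3:**
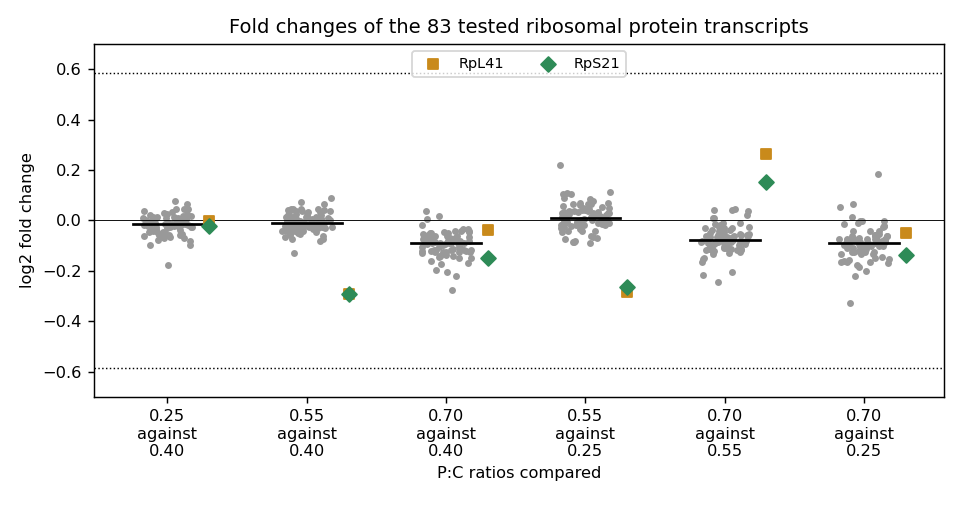
Fitted log2 fold change (y axis) of the 83 tested ribosomal protein transcripts in the 6 pairs of diets (x axis), with 1 point for each transcript, a bar for the median and dotted lines at a 1.5-fold change. RpL41 and RpS21 are marked, and no member lay beyond 1.5-fold in any pair.

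Along the P:C ratio as a number, over all 12 samples, 2 of 83 members passed the test in opposite directions, where 36.7% of all tested transcripts passed (17.1% higher and 19.6% lower). DESeq2 called 5, among them RpL10Ab, RpL35 and RpS14b, all lower, against 38.4% of all tested transcripts, and 5 members had an unadjusted p under 0.05, against 49.9%. A slope is a log2 change for each 1.0 of the P:C ratio, and the diets spanned less than that. The median slope was -0.14 over the members and 0.045 over all tested transcripts. With scaling by total counts alone these were 0.0031, with 42 members above 0 and 41 below, and 0.19, so the direction of the members' median depended on the scaling, while it lay below that of all tested transcripts in both scalings. The median was -0.14 for the 44 tested large-subunit members, -0.13 for the 33 of the small subunit, -0.21 for the 3 of the stalk and -0.083 for the 3 assembly-factor homologs.

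Most of the paralog sets described were dominated by 1 gene on every diet. RpL10Aa and RpL37b had 0 counts in every sample, where 3 counts would be 0.216 to 0.479 CPM. RpL22-like and RpS28a had 1 count in all 12 samples together, RpS10a 24 and RpS19b 44, and none of these 6 passed the filter on low counts. These are the 6 untested members. RpS15Ab held 2.59% to 3.50% of the counts of RpS15Aa and RpS15Ab, with overlapping diets, and its slope was -0.11 (adjusted p 0.743), or 0.043 with scaling by total counts.

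RpL34a (3R:26058420-26059267, dm6) was a more even minor copy. It held 15.8%, 16.9% and 16.5% of the counts of RpL34a and RpL34b at the P:C ratio of 0.25, 16.5%, 17.0% and 15.8% on the control diet, 16.0%, 17.0% and 18.2% at 0.55, and 18.2%, 18.2% and 17.9% at 0.7. The 0.7 samples were above those of 0.25 and the control diet and overlapped with 0.55. Its slope of 0.22 (SE 0.12, adjusted p 0.151) did not pass the test, although it did with scaling by total counts, and that of RpL34b was -0.16 (SE 0.17, adjusted p 0.468).

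RpS14b held 18.5% to 20.1% of the counts of RpS14a and RpS14b. These genes are neighbours on the X chromosome and nearly identical in sequence, so the division of reads between them is uncertain. Their slopes were -0.37 (SE 0.15, adjusted p 0.0618) for RpS14b and -0.29 (SE 0.16, adjusted p 0.165) for RpS14a. Per kilobase of exon, the assembly-factor homologs made up a mean of 17.3% (RpL24-like), 5.76% (RpL7-like) and 3.45% (RpLP0-like) of the pair they form with the ribosomal protein they resemble. In counts, RpL24-like held 10.7% to 12.4% of its pair, RpL7-like 4.41% to 5.21% and RpLP0-like 2.19% to 2.87%, and the slopes were -0.12, -0.083 and 0.017, none past the test and the first and second above 0 (0.031 and 0.064) with scaling by total counts. The share of RpLP0-like was 2.62% to 2.87% at 0.7 and 2.19% to 2.57% on the other diets, while its own level, 45.8 to 51.2 CPM over all samples, did not separate the diets. RpL24-like and RpLP0-like overlap a transcript on the other strand.

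RpL41 was the most variable member, and its variation lay in 2 libraries. It measured 1793, 1643 and 1711 CPM at the P:C ratio of 0.25, 1702, 1705 and 1773 CPM on the control diet, 1821, 1247 and 1153 CPM at 0.55, and 1770, 1609 and 1694 CPM at 0.7. Replicates 2 and 3 of 0.55 were below all 10 other samples. The fold change of -0.29 against the control diet (SE 0.15, adjusted p 0.9998) was 0.086 when both libraries were left out, so its direction rested on them. Without replicate 1 of 0.55, the difference from 0.25 passed the test at -0.52 (adjusted p 0.0282), as did 2.46% of all tested transcripts. RpL41 lies within a transcript of NaCP60E on the other strand.

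RpL41 has one of the shortest transcripts, and other short members were low in replicate 3 of 0.55 as well. RpS21 measured 522, 506 and 546 CPM on the control diet and 452, 450 and 382 CPM at 0.55. These groups did not overlap, and the fold change of -0.29 (SE 0.09, p 0.00815) had an adjusted p of 0.877. RpL39, a small protein that lines the exit tunnel, measured 549, 453 and 490 CPM on the control diet and 476, 483 and 402 CPM at 0.55, with overlapping groups. RpL39 overlaps RpL12 on the other strand. Of the 5 members under 500 nucleotides (RpL29, RpL36, RpL39, RpL41 and RpS21), the median deviation from the mean log2 level was -0.069 and -0.21 in replicates 2 and 3 of 0.55, against 0.037 and -0.087 for the 78 longer members. In the 244 other tested transcripts of that length it was 0.0022 and -0.082, and in 8903 longer ones 0.0029 and 0.0044. In replicate 2 of 0.7 it was -0.11 and -0.13 for the short and the longer members. There it was -0.13 and 0.023 for the other short and longer transcripts. The length limit was chosen after these values were seen, and the part of transcript length or library preparation was not tested.

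**Figure D4:**
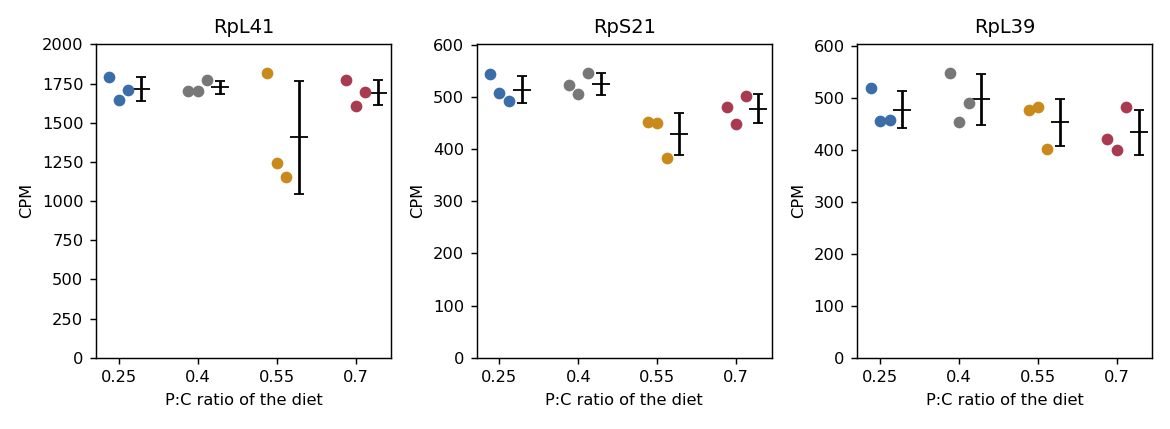
Levels in CPM (y axis) of the short transcripts RpL41, RpS21 and RpL39 in each replicate of the 4 diets (x axis, P:C ratio), with bars for the mean and SD (n = 3). Replicates 2 and 3 of the P:C ratio of 0.55 had 1247 and 1153 CPM of RpL41, and all other samples 1609 CPM or more.

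Members with further roles in the cell did not pass the test along the P:C ratio. RpL40, made as a fusion with ubiquitin, measured 823 to 1008 CPM over the 12 samples with a slope of -0.18 (SE 0.15, adjusted p 0.345). RpS6, the substrate of the growth-regulated S6 kinase, measured 1397 to 1774 CPM with a slope of -0.27 (SE 0.17, adjusted p 0.205). In RpLP0, RpLP1 and RpLP2 the slopes were -0.26, -0.17 and -0.21, and none passed the test. RpS27A had no entry under that name and was not analysed here.

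Genes that make ribosomes were looked at beside the genes of the ribosome itself. Of 21 tested ribosome biogenesis genes, 7 rose along the P:C ratio and none fell, where 17.1% of all tested transcripts rose and 19.6% fell. Their median slope was 0.37 against -0.14 for the members and 0.045 for all tested transcripts, all with TMM scaling. With scaling by total counts the medians of the members (0.0031) and of all tested transcripts were both higher, and that of the biogenesis genes was not computed. Tif-IA, which recruits RNA polymerase I, rose with a slope of 0.77 (SE 0.14, adjusted p 0.00146), from 118 ± 4.63 CPM at 0.25 to 153 ± 5.14 CPM at 0.7 (SD, n = 3). RIOK1, a kinase of small-subunit maturation, rose with a slope of 0.66 (SE 0.23, adjusted p 0.0361), and RpI12, a subunit of RNA polymerase I, had a slope of 0.76 (SE 0.41, adjusted p 0.147). Between 0.7 and 0.25, 5 of the 21 rose and none fell, where 15.8% of all tested transcripts rose and 22.8% fell. The 70 mitochondrial ribosomal protein transcripts, which serve the separate ribosome of that organelle, had a median slope of 0.37, with 12 that rose, the same share as the 17.1% of all tested transcripts, and 0 that fell. The difference between these lists and the members was not tested, and lists and members were chosen with earlier results of these data known.

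Of 20 genes of TOR and insulin signalling and growth control, the pathways that set ribosomal protein production, 3 rose and 2 fell along the P:C ratio, no larger a share than over all tested transcripts (17.1% and 19.6%). Xrp1, a transcription factor that in flies is induced in cells with a ribosomal protein mutation, fell with a slope of -1.20 (SE 0.36, adjusted p 0.0227), from 421 ± 81.7 CPM at 0.25 to 270 ± 39.4 CPM at 0.7 (SD, n = 3). Thor, the 4E-BP that blocks cap-dependent translation, had a slope of -0.93 (SE 0.43, adjusted p 0.0964), and REPTOR-BP, a partner of the TOR-repressed factor REPTOR, one of -0.92 (SE 0.35, adjusted p 0.0502). These 3 genes had the largest absolute slopes of the list and all were negative. The median slope of the list was -0.10 and its highest was 0.66, and the 3 genes that rose are not named here. Of the cell type markers, bam, plu and swa of the germline rose with slopes of 1.52, 1.30 and 1.11, and Act88F, fln and TpnC4 of flight muscle fell with slopes of -6.76, -4.78 and -4.74. The nervous system genes nSyb, brp and Syt1 fell with slopes near -2.5, from -2.55 to -2.45. Lsp2, a storage protein of the fat body, was the single fat body gene of 6 to pass the test, with a slope of 3.35. None of 19 eggshell genes passed along the P:C ratio, but 6 of them fell at 0.7 against the control diet (median of the list -0.44, with 6.59% of all tested transcripts lower) and 6 fell against 0.55 (median -0.33, with 2.19% lower). In both comparisons the members' median was below 0 with TMM scaling. Between 0.7 and 0.25, where the members' median was -0.088, 0 of 19 eggshell genes were called (median -0.12, with 22.8% of all tested transcripts lower). Between 0.25 and 0.4 the eggshell median was -0.34 with 0 called, and the members' median was -0.014. The part of the eggshell transcripts in the members' median was not tested.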

How the data were processed

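The deposited file held raw counts per transcript for all 12 samples, with 1 entry per gene. Per the labels and the methods, the authors trimmed reads with Trim Galore, aligned them with HISAT2 to BDGP6 (dm6) and counted them with Seqmonk. Whether counting used strand is not given in the sources used here, and 26 members overlap another transcript of the table. All 89 members had an exon length in the Ensembl annotation of the same build, and 73 matched it in span.

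Counts were tested in R 4.3.3 with edgeR 4.0.16 (TMM scaling, filterByExpr, quasi-likelihood test, Benjamini-Hochberg over all tested transcripts), on the 6 samples of a pair of diets or, for the slope, on all 12. A member was called at an adjusted p under 0.05, and a 1.5-fold change was asked beside it. DESeq2 1.42.0, other scalings and filters, 1 fit of all samples, a replicate block, and leaving out each replicate were tried. CPM are counts per 1e6 with TMM scaling. Log2 CPM used a prior count of 2. Intervals are 95% from the fit. The methods were checked on simulated data.

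Named were paralogs, RpL40, the stalk proteins, RpS6, the 3 highest and 3 lowest members of each comparison, the 5 with most counts, and at most 3 genes of each list by absolute slope. Some that met this rule, such as RpL22 and RpS25, are not described in the results, and some items are not reported here. The members and lists were chosen with earlier results of these data known. The p-values measure the spread between these pools of flies.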

Additional observations from a re-analysis of the deposited data

How the results depend on the processing

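Scaling by total counts alone moved the median fold change of the members, given here with that of all tested transcripts after it. These were -0.037 and -0.033 (0.25 against 0.4), -0.040 and -0.029 (0.55 against 0.4), and -0.020 and 0.074 (0.7 against 0.4). For the other pairs they were 0.015 and 0.099 (0.7 against 0.25), -0.00086 and 0.0048 (0.55 against 0.25), and 0.0072 and 0.082 (0.7 against 0.55). The members' median slope moved to 0.0031, below that of all tested transcripts. This scaling turned the slopes of RpL24-like (0.031), RpL24 (0.032), RpL3 (0.0031), RpL31 (0.14), RpL4 (0.053), RpL7-like (0.064), RpS15Aa (0.11), RpS15Ab (0.043) and RpS2 (0.10). None of these passed the test. RpLP0-like and RpS3A turned with DESeq2 size factors (-0.0060 and -0.0029), with at least 10 counts in every sample (-0.022 and -0.019) and with DESeq2 (-0.0093 and -0.0024), RpL31 without a filter on low counts (0.011), and RpL24-like between 0.7 and 0.4 with at least 10 counts (-0.0013). The number of members called between 0.7 and 0.25 was 2 with DESeq2 size factors, with scaling by total counts and without a filter. It was also 2 with DESeq2 and with all 12 samples in 1 fit. With these settings, 30.9% to 45.2% of all tested transcripts were called. The number was 0 with a change of more than 1.5-fold, where 19.3% were called. With DESeq2 it was 1 between 0.7 and 0.4 (14.4% of all tested transcripts) and 5 along the P:C ratio (38.4%). Leaving out replicates 2 and 3 of 0.55, chosen after seeing the data, left replicate 1 as the single library of that diet. The members' medians were then 0.086 against 0.4 and 0.11 against 0.25, where those of all tested transcripts were 0.0047 and -0.0043. Leaving both out also turned RpL41 (0.086 against 0.4, 0.10 against 0.25, and -0.091 for 0.7 against 0.55) and the slope of RpS15Aa (0.015).

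Leaving out 1 library at a time, the number of members called stayed at 0 for 0.25 against 0.4 and for 0.55 against 0.4. For 0.7 against 0.4 it ranged from 0 to 3, with 3 without replicate 3 of 0.7, where 18.5% of all tested transcripts were called. For 0.7 against 0.25 it ranged from 0 to 6, with 38.8% called in the fit with 6. It was 0 to 1 for 0.55 against 0.25, with RpL41 called without replicate 1 of 0.55 (2.46% of all tested transcripts). For 0.7 against 0.55 it was 0 to 1, with RpLP0 called without replicate 3 of 0.55 (17.7%). Along the P:C ratio it was 0 to 5. The number was 0 without replicate 1 of 0.25 or replicate 1 or 2 of 0.7 and 5 without replicate 1 of 0.55. The main fit along the P:C ratio called 36.7% of all tested transcripts, and the shares in the fits without a library are not given here. Medians ranged from -0.053 to 0.0069, -0.061 to 0.041, -0.13 to -0.043, -0.13 to -0.047, -0.040 to 0.056 and -0.13 to -0.030 in that order of comparisons, and from -0.20 to -0.057 for the slope. Values that turned were RpS10b for 0.25 against 0.4 (-0.0027 to 0.093) and RpL24-like for 0.7 against 0.4 (-0.057 to 0.044), and the slopes of RpL3 (-0.20 to 0.017), RpL31 (-0.057 to 0.097), RpL37a (-0.055 to 0.16), RpL4 (-0.15 to 0.028), RpLP0-like (-0.032 to 0.082), RpS15Aa (-0.100 to 0.031), RpS2 (-0.12 to 0.084) and RpS3A (-0.037 to 0.083). The cause was not tested.

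The sources used here do not say whether samples with the same replicate number were handled together. Of 18 correlations of deviations between same-numbered samples, 4 were over 0.1 (-0.34 to 0.34). Between 0.7 and 0.4 they were 0.0010, 0.19 and 0.18 for replicates 1 to 3. Deviations from a mean of 3 samples cannot settle whether the samples are paired. With the replicate block, 3 members were called between 0.7 and 0.4 (RpL10Ab and RpLP0 among them, all lower), with 26.9% of all tested transcripts called in place of 9.15%, and 1 along the P:C ratio, with 36.2% called. The diets are evenly spaced, so a fit on their rank again called 2 members, where the main fit called 36.7% of all tested transcripts.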
